A study of Mus musculus with 12 samples.

Results

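The mRNA levels of 10 surface marker genes, *Ly6a*, *Cd34*, *Slamf1*, *Cd48*, *Procr*, *Adgrg1*, *Eng*, *Cd9*, *Cd93* and *Cd33*, were followed in mouse acute myeloid leukemia (AML) cells treated with CCS1477. The genes were taken by name as markers used to sort hematopoietic stem cells, progenitors and leukemia cells, and all 10 were found among the 15651 genes of the expression table. Libraries came from c-Kit-enriched splenocytes of 3 *D/F* and 3 *T/F* mice on a C57BL/6J background, and the cells of each mouse were divided between DMSO, the vehicle, and CCS1477 for 6 h, which gave 12 libraries in 4 groups of 3. *D/F* mice carried Dnmt3a fl/fl, Flt3 ITD/ITD and Mx1-Cre, and *T/F* mice carried Tet2 fl/fl with the same Flt3 ITD/ITD and Mx1-Cre alleles, so that every library came from cells with the Flt3 internal tandem duplication. The mice were moribund, their age was not given in the labels, and deletion relied on leaky Mx1-Cre without induction, so that cells could have lost 1 or both floxed alleles. All cultures contained the cytokines SCF, IL6 and IL3. CCS1477 (inobrodib), which binds the bromodomains of the histone acetyltransferases p300 and CBP, was given at 4 μM to *D/F* cells and at 2 μM to *T/F* cells, so that genotype and dose cannot be told apart. Levels are given in TPM, an abundance scaled by transcript length and library total, which allows genes to be set side by side within a library.

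Surface proteins of this kind let cells at different steps of hematopoiesis be sorted from one another. Mouse stem cells are enriched among cells that carry Kit, Sca-1 (the product of *Ly6a*), CD150 (*Slamf1*) and EPCR (*Procr*) and lack CD48 and CD34, whereas CD34 and CD48 appear as stem cells become progenitors. CD93 and CD33 are found on myeloid cells, and both have been used as markers or targets on human AML cells. p300 and CBP acetylate histones at enhancers and promoters, and their bromodomains bind acetylated lysine.

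In the GENCODE vM21 annotation of GRCm38 each of the 10 was a protein-coding gene. *Cd48* (chr1:171682009-171705258, plus strand) and *Slamf1* (chr1:171767127-171801184, plus strand) lie near each other in the SLAM gene cluster, and *Cd34* lies on the same chromosome (chr1:194938819-194961279, plus strand). *Cd93* (chr2:148436640-148443563, minus strand), *Procr* (chr2:155751117-155755471, plus strand) and *Eng* (chr2:32646595-32682669, plus strand) share chromosome 2. The others were *Ly6a* (chr15:74994877-74998031, minus strand), *Cd33* (chr7:43524216-43544428, minus strand), *Adgrg1* (chr8:94974751-95014217, plus strand) and *Cd9* (chr6:125460266-125494791, minus strand).

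The RefSeq promoter table (GRCm38.p6) held 8 of the 10 genes and not *Ly6a* or *Cd93*. Parts of the 250 bases before the start site that lay over an annotated exon were removed, which left fewer than 50 bases for *Cd48* and *Cd9*. The 3 sequences here are those of *Cd34* and *Cd33*, whose levels were lower with CCS1477 in every mouse, and of *Eng*, whose level was not. The RefSeq start site of *Cd33* lies inside the GENCODE span given above, whose 5′ end on the minus strand is at 43544428. All 3 sequences are written 5′ to 3′ on the strand of the gene, and capitals mark a match to a searched motif.
Cd34, 248 bases, chr1:194938571-194938818, plus strand: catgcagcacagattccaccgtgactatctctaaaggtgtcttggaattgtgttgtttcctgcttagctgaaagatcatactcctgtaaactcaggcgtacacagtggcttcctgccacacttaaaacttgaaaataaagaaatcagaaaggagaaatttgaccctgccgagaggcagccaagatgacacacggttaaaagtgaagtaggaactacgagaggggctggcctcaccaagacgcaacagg
Cd33, 193 bases, chr7:43533172-43533364, minus strand: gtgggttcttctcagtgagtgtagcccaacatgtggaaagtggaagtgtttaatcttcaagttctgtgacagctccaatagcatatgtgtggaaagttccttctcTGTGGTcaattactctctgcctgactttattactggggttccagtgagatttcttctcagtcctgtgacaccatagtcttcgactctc
Eng, 250 bases, chr2:32646345-32646594, plus strand: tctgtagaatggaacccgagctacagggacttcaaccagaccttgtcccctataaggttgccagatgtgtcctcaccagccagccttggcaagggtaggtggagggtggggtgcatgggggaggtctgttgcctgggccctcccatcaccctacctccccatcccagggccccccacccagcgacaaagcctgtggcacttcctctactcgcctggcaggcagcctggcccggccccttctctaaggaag
Of 6 motifs searched on both strands in the windows of the 6 genes that kept 50 bases or more, the only match was 1 RUNX motif (TGTGGT), 88 to 83 bases before the start site of *Cd33*. The same letters occurred in 14.0% of the 250-base windows of all 32851 promoters in the table, which are longer than the *Cd33* window. The E-box CACGTG, which 6.02% of all promoters held, was not found in these windows. The same was true of the GATA letters AGATAA, present in 9.99% of promoters, and of the STAT letters TTCNNNGAA, present in 7.02%. Nor was there a TATA box, searched as TATAAA and present in 12.4% of promoters. The last motif searched was CCGGAAG, which ETS factors bind, and 6.91% of promoters held it.

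The targeted genes were examined first. With DMSO *Tet2* was lower in *T/F* cells, at 33.4 ± 3.03 TPM (SD, n = 3), than in *D/F* cells, at 41.2 ± 2.63 TPM (SD, n = 3), and the groups did not overlap. *Dnmt3a* was at 39.4 ± 14.3 TPM (SD, n = 3) in these *D/F* cells, beside 45.3 ± 7.55 TPM (SD, n = 3) for *T/F*, and these groups overlapped, so that the level of this mRNA did not separate the genotypes. All 8 genes of a progenitor and granule list were present, with *Kit* between 22.8 and 149 TPM over the 12 libraries. *D/F* replicate 2 stood apart from the other *D/F* mice in both treatments. In its DMSO library *Kit* was at 149 TPM, against 50.5 and 60.9 TPM in the other 2, and the platelet gene *Pf4* was at 67.0 TPM, against 11.9 and 19.4 TPM. The granule enzyme gene *Mpo* was lowest there, at 1163 TPM against 3673 and 2646 TPM. That DMSO library also had the highest level of its group for 8 of the 10 surface markers, and the share of all genes highest there was not computed. With CCS1477 the same mouse had *Kit* at 54.9 TPM, against 22.8 and 25.1 TPM, and *Pf4* at 23.2 TPM, against 6.17 and 10.2 TPM. Its *Mpo* was again lowest, at 277 TPM against 1582 and 1130 TPM, and 5 of the 10 markers were highest in that treated library.

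With CCS1477, 7 of the 10 markers were lower in each of the 6 mice (*Ly6a*, *Cd34*, *Slamf1*, *Cd48*, *Adgrg1*, *Cd93* and *Cd33*), a pattern that 24.2% of the 15583 genes tested showed. Over both genotypes 6 of the 10 fell at an adjusted p under 0.05 in limma (all of these 7 but *Adgrg1*), against 19.6% of all genes tested. Within *D/F*, 4 of 10 fell (*Ly6a*, *Cd48*, *Cd93* and *Cd33*), against 6.51% of all genes. Within *T/F*, 4 of 10 fell (*Cd48*, *Cd93*, *Cd33* and *Slamf1*), against 17.6% of all genes. None rose in any of these comparisons. *Slamf1* passed the 1 TPM mean filter of the fit only through its DMSO cells, where it was high. The filter thus favoured its fall in every count that holds it. The median log2 difference of the 10 was -1.495 in *D/F*, and that of *T/F* was -0.91, beside medians over all genes of 0.06 and 0.07. The comparison over both genotypes uses the same samples as the other 2, so that the 3 counts are not independent.

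Pairing the DMSO and CCS1477 cells of a mouse in the limma fit changed which markers passed. In *D/F* 7 of 10 fell in the paired fit, against 18% of all genes, with *Cd34*, *Adgrg1* and *Eng* added. In *T/F* 7 of 10 also fell, against 22.9% of all genes, with *Ly6a*, *Cd34* and *Adgrg1* added. Over both genotypes 7 fell, against 25.9% of all genes, with *Adgrg1* added. Without *D/F* replicate 1 or replicate 3 the unpaired limma fit passed 0 genes of the whole table. In those fits 2494 and 2330 genes, 5 of the 10 markers each time, were under an unadjusted p of 0.05. The log2 differences of *Ly6a*, *Cd48*, *Cd93* and *Cd33* were not smaller in size there. For *Cd48* they were -1.82 and -1.75, against -1.68 with every mouse, and for *Cd93* -2.59 and -2.70, against -2.44. Without the divergent *D/F* replicate 2 the unpaired fit passed 5 markers among 3739 genes of the whole table, higher or lower, and the paired fit 6 markers among 5015 genes.

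**Figure D1:**
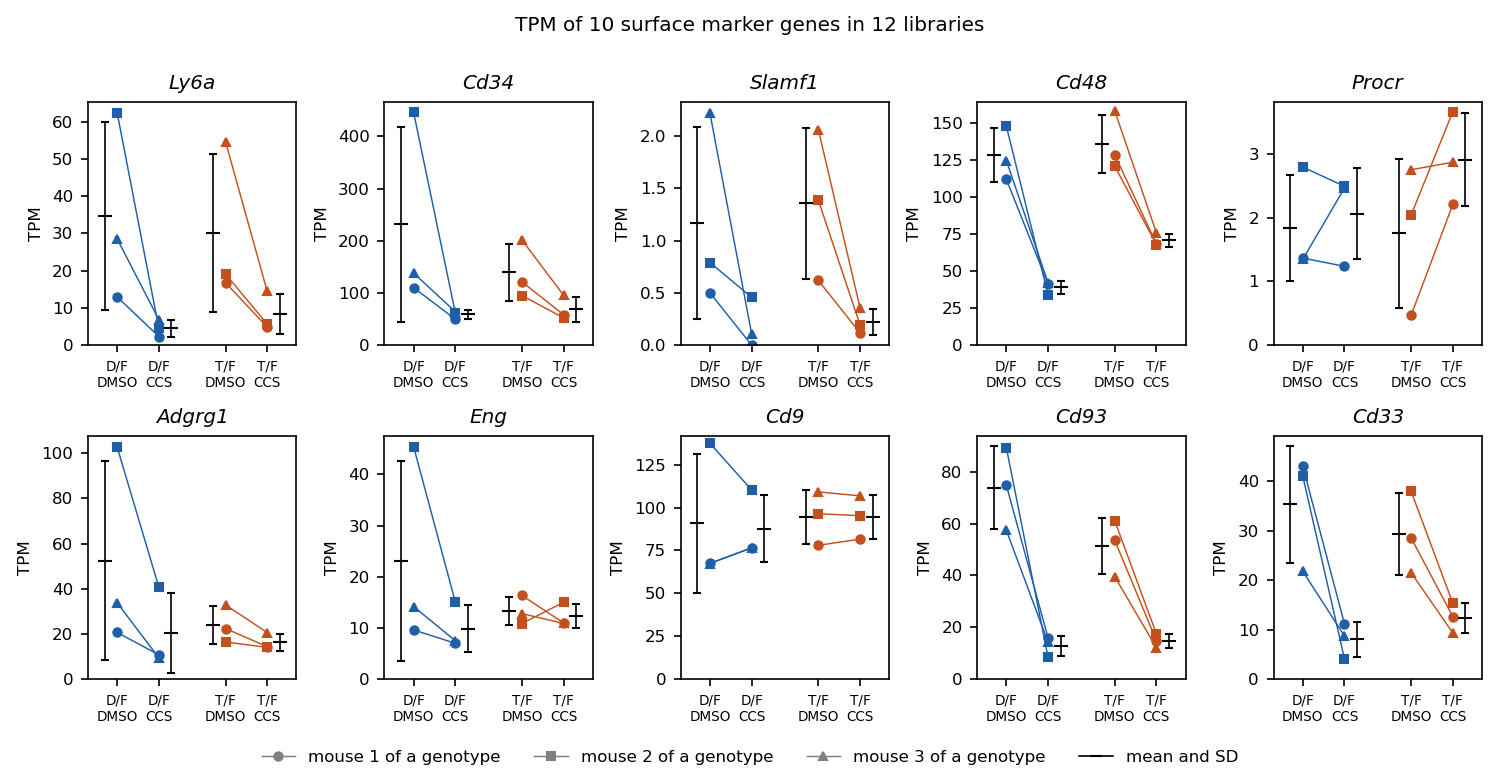
TPM of each marker (vertical axes, from 0) in the 12 libraries, with a line joining the DMSO and CCS1477 cells of a mouse, and group means with SD at the sides (not drawn for *Slamf1* in *D/F* with CCS1477, where 1 library is listed at 0). *Cd48*, *Cd93* and *Cd33* separate by treatment in both genotypes, *D/F* replicate 2 is the high DMSO point of *Cd34*, *Adgrg1* and *Eng*, and *Cd9* stays level.

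The stem and progenitor markers came first. *Ly6a*, which encodes the GPI-anchored protein Sca-1, was at 12.96, 62.4 and 28.5 TPM in *D/F* replicates 1, 2 and 3 with DMSO and at 2.29, 4.52 and 6.83 TPM with CCS1477. In *T/F* it was at 16.8, 19.1 and 54.6 TPM with DMSO and at 4.84, 5.63 and 14.4 TPM with CCS1477. Treated and untreated cells did not overlap in either genotype, although 1 mouse of each genotype stood above the other 2 with DMSO. The mice of *T/F* differed 3.26-fold in their DMSO level, yet the share left after CCS1477 was 28.9, 29.5 and 26.4%. In *D/F* the share left was 17.7, 7.24 and 24.0%, so that every *D/F* mouse kept less than every *T/F* mouse. The log2 difference was -2.51 ± 0.59 (SE) in *D/F* (limma, adjusted p = 0.0431) and -1.68 ± 0.57 (SE) in *T/F* (limma, adjusted p = 0.0566, or 0.00182 in the paired fit). The *D/F* call was lost when any of the 3 mice was left out of the unpaired fit. *Ly6a* belongs to a family of near-identical neighbours among which reads may be divided, and its level is uncertain to that extent.

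*Cd34*, which encodes a sialomucin of progenitors and vessels, had the highest mean of the 10 with DMSO in both genotypes, though it overlapped with *Cd48*, next in order. In *D/F* it was at 110, 447 and 138 TPM with DMSO and at 49.7, 62.5 and 64.0 TPM with CCS1477. The *T/F* mice had 121, 95.03 and 202 TPM with DMSO and 58.2, 52.2 and 95.6 TPM with CCS1477. The groups were apart in *D/F*, and in *T/F* they overlapped by the treated cells of replicate 3, which reached the level of the untreated cells of replicate 2. The *D/F* mice differed 4.05-fold before treatment and 1.29-fold after it. *D/F* replicate 2, the highest of them before treatment, kept 14.0% of its level while the other 2 kept 45.1 and 46.4%. In *T/F* the mice kept 48.0, 55.0 and 47.4%. The log2 difference of *Cd34* was -1.68 ± 0.51 (SE) in *D/F* (limma, adjusted p = 0.0832, or 0.0363 paired) and -0.99 ± 0.34 (SE) in *T/F* (limma, adjusted p = 0.0628, or 0.00246 paired). Over both genotypes it passed without pairing (limma, log2 difference -1.34, adjusted p = 0.0074).

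*Slamf1*, which encodes the self-binding receptor CD150, was the lowest of the 10 in mean in every group. With DMSO it was at 0.500, 0.790 and 2.22 TPM in *D/F* and at 0.619, 1.39 and 2.06 TPM in *T/F*. With CCS1477 it was at 0.118, 0.195 and 0.358 TPM in *T/F*, and in *D/F* it was listed at 0 in replicate 1 and at 0.456 and 0.107 TPM in replicates 2 and 3. All 6 mice were lower after treatment and neither genotype had overlapping groups. Its mean passed the 1 TPM filter only with DMSO, at 1.169 TPM in *D/F* and 1.355 TPM in *T/F*. With CCS1477 the means were 0.188 and 0.223 TPM, so that the filter favoured a fall. *T/F* mice kept 19.0, 14.1 and 17.4%, whereas *D/F* replicates 2 and 3 kept 57.8 and 4.83%. On the log2 scale with 1 TPM added, which understates changes at such levels, the difference was -0.90 ± 0.24 (SE) in *T/F* (limma, adjusted p = 0.0259) and -0.81 ± 0.32 (SE) in *D/F* (limma, adjusted p = 0.148). With 0.1 TPM added in place of 1 it was -2.10 in *T/F* and -2.25 in *D/F*. The *T/F* call was lost without replicate 2 (adjusted p = 0.174) or replicate 3 (adjusted p = 0.0659) in limma.

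*Cd48*, which encodes a GPI-anchored ligand of the SLAM family receptor CD244, had the lowest SD of the log2 response, 0.36, of the 4 markers that fell in *D/F*. In *D/F* it was at 112, 148 and 125 TPM with DMSO and at 41.3, 34.0 and 42.1 TPM with CCS1477. Its levels in *T/F* were 129, 121 and 158 TPM with DMSO and 68.4, 67.9 and 75.8 TPM with CCS1477. The groups were far apart in both genotypes. *D/F* mice kept 36.9, 23.0 and 33.8% and *T/F* mice 53.3, 56.2 and 47.9%. The log2 difference was -1.68 ± 0.17 (SE) in *D/F* (limma, adjusted p = 0.00709) and -0.93 ± 0.12 (SE) in *T/F* (limma, adjusted p = 0.00226).

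The next 4 markers are carried by stem cells or shared with endothelium or platelets, and none of them passed in the unpaired fit. *Procr*, which encodes the endothelial protein C receptor, was low, at 1.37, 2.79 and 1.35 TPM in *D/F* with DMSO and at 1.24, 2.49 and 2.46 TPM with CCS1477. In *T/F* it was at 0.469, 2.04 and 2.75 TPM with DMSO and at 2.21, 3.66 and 2.87 TPM with CCS1477. All 3 *T/F* mice were higher with CCS1477 but the groups overlapped, and in *D/F* 1 mouse was higher and 2 were lower. Neither difference passed, at 0.12 ± 0.28 (SE, log2) in *D/F* (limma, adjusted p = 0.813) and 0.60 ± 0.37 (SE, log2) in *T/F* (limma, adjusted p = 0.237, or 0.0986 paired).

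*Adgrg1* encodes the adhesion G protein-coupled receptor GPR56, which is carried by stem cells and by human leukemia stem cells. In *D/F* it was at 20.7, 103 and 33.9 TPM with DMSO and at 10.8, 40.8 and 9.48 TPM with CCS1477. The *T/F* mice had 22.5, 16.5 and 32.9 TPM with DMSO and 14.4, 14.1 and 20.7 TPM with CCS1477. Every mouse was lower with CCS1477, while the groups overlapped in both genotypes. The share left was 52.3, 39.7 and 28.0% for *D/F* mice and 64.3, 85.3 and 62.8% for *T/F* mice. The log2 difference was -1.31 ± 0.74 (SE) in *D/F* (limma, adjusted p = 0.285) and -0.49 ± 0.27 (SE) in *T/F* (limma, adjusted p = 0.198). In the paired fit the SE was 0.19 in *D/F* (adjusted p = 0.0125) and 0.11 in *T/F* (adjusted p = 0.0265) in limma, and without *D/F* replicate 2 the unpaired *D/F* difference also passed (adjusted p = 0.0368).

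*Eng* encodes endoglin, a co-receptor for ligands of the TGF-beta and BMP family. In *D/F* it was at 9.65, 45.5 and 14.2 TPM with DMSO and at 7.04, 15.2 and 7.55 TPM with CCS1477. Its levels in *T/F* were 16.4, 10.9 and 12.8 TPM with DMSO and 11.01, 15.04 and 10.9 TPM with CCS1477. The 3 *D/F* mice were lower with CCS1477, with overlapping groups, and in *T/F* replicate 2 was higher and the other 2 lower. The log2 difference was -0.92 ± 0.58 (SE) in *D/F* (limma, adjusted p = 0.335, or 0.0444 paired) and -0.10 ± 0.18 (SE) in *T/F* (limma, adjusted p = 0.676, 95% interval -0.55 to 0.35).

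*Cd9*, which encodes a tetraspanin abundant on megakaryocytes and platelets, differed least between treatments. In *D/F* it was at 67.5, 137 and 67.4 TPM with DMSO and at 76.5, 110 and 76.6 TPM with CCS1477. In *T/F* it was at 78.0, 96.4 and 109 TPM with DMSO and at 81.6, 95.2 and 107 TPM with CCS1477. The order of the *T/F* mice was the same in both treatments, and the share left was 105, 98.8 and 97.9%. The paired 95% interval of the log2 difference was -0.14 to 0.15 in *T/F* and -0.37 to 0.40 in *D/F*. Rescaling each library to its median gene turned the sign of this near-zero difference in both genotypes. *Cd9* had the highest mean of the 10 with CCS1477 in both genotypes, and it did not overlap with the gene next in order.

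The myeloid markers fell in both genotypes. *Cd93*, which encodes a group XIV C-type lectin, was at 74.8, 89.2 and 57.4 TPM in *D/F* with DMSO and at 16.0, 8.53 and 14.3 TPM with CCS1477. The *T/F* mice had 53.5, 61.1 and 39.5 TPM with DMSO and 14.9, 17.5 and 12.2 TPM with CCS1477. Every treated library was below every untreated library of its genotype. The share left was 21.3, 9.56 and 24.9% for *D/F* mice and 27.8, 28.6 and 30.7% for *T/F* mice. The log2 difference was -2.44 ± 0.28 (SE) in *D/F* (limma, adjusted p = 0.00795) and -1.72 ± 0.20 (SE) in *T/F* (limma, adjusted p = 0.00169).

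*Cd33*, which encodes a sialic acid-binding receptor, was at 43.1, 41.1 and 21.8 TPM in *D/F* with DMSO and at 11.2, 4.18 and 8.76 TPM with CCS1477. Its levels in *T/F* were 28.6, 38.0 and 21.5 TPM with DMSO and 12.7, 15.4 and 9.36 TPM with CCS1477. Treated cells lay below untreated ones in each genotype, and *D/F* replicate 2 again kept the least of its level, 10.2%, against 26.0 and 40.1% in the other 2. The *T/F* mice kept 44.3, 40.5 and 43.5%. The log2 difference was -2.03 ± 0.40 (SE) in *D/F* (limma, adjusted p = 0.0282) and -1.16 ± 0.25 (SE) in *T/F* (limma, adjusted p = 0.0134, or 0.0939 without replicate 1).

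Counted without a model, treated and untreated libraries did not overlap, with the treated lower, for 6 of 10 markers in *D/F* and for 5 of 10 in *T/F*. Over all genes tested the share was 16.7% in *D/F*, and it was 22.6% in *T/F*. *Slamf1*, which is in both counts, passed the filter only through its DMSO cells. An exact permutation test of 3 libraries against 3 cannot go below p = 0.1 (two-sided), so that a single marker could not pass by that test.

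**Figure D2:**
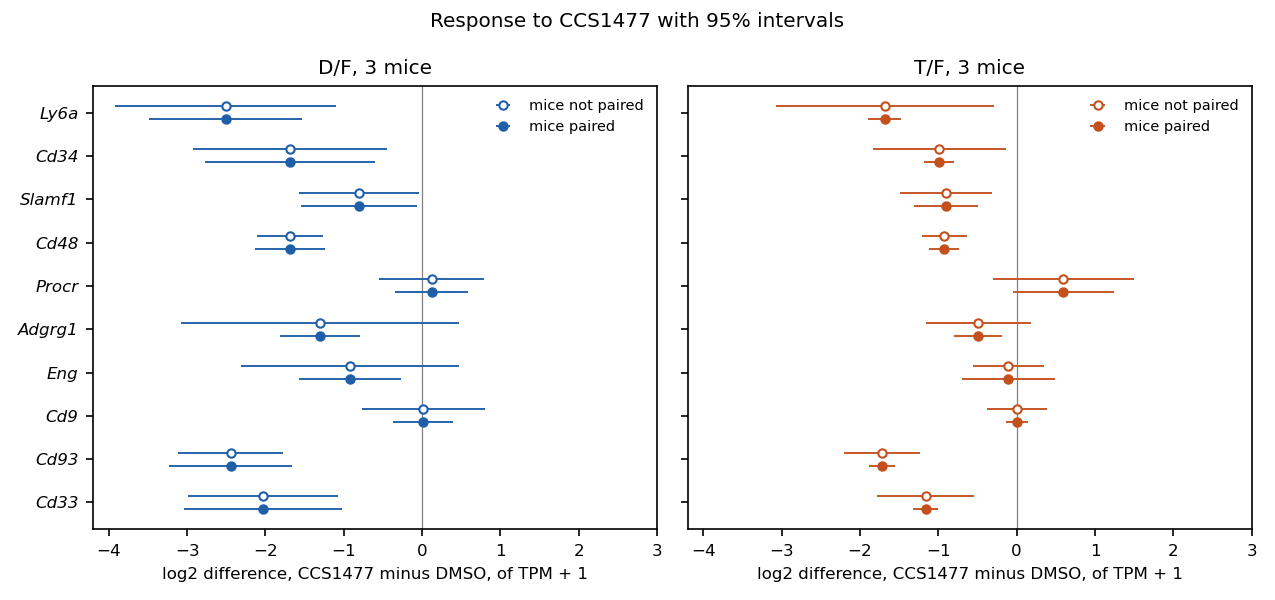
Log2 difference of TPM + 1 between CCS1477 and DMSO (horizontal axis, with 95% intervals from limma) for each marker in 3 *D/F* and 3 *T/F* mice, open circles for the unpaired and filled circles for the paired fit. Pairing narrows the intervals of *Ly6a*, *Cd34* and *Adgrg1* in *T/F*, and the intervals of *Cd9* and *Procr* include 0 in every fit.

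The size of the response was then compared between the genotypes, with the dose 4 μM in *D/F* and 2 μM in *T/F*. For 5 of 10 markers (*Ly6a*, *Cd34*, *Cd48*, *Adgrg1* and *Cd93*) the log2 response of every *D/F* mouse was below that of every *T/F* mouse, an order that 13% of all genes tested showed. For *Cd34* the separation was narrow, with -1.10 in *D/F* replicate 3 and -1.07 in *T/F* replicate 3. It was also narrow for *Ly6a*, with -1.91 and -1.85 in the same mice. No marker showed the opposite order, which 10.3% of all genes tested did. In the limma test of the difference itself 0 of 10 markers and 0 of 15583 genes passed, and 659 genes, 1 of them a marker, were under an unadjusted p of 0.05. That marker was *Cd48*, whose response differed by 0.76 ± 0.20 (SE, log2, 95% interval 0.31 to 1.21) with an adjusted p of 0.999 in limma, or 0.217 in the paired fit. For *Ly6a* the difference of 0.82 had an interval of -1.15 to 2.79 unpaired and -0.22 to 1.87 paired. For *Adgrg1* the difference of 0.82 had an interval of -1.11 to 2.75 unpaired and 0.23 to 1.41 paired. In the paired limma fit that difference had an adjusted p of 0.248 over all genes, and its paired interval lay above 0 before that adjustment.

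**Figure D3:**
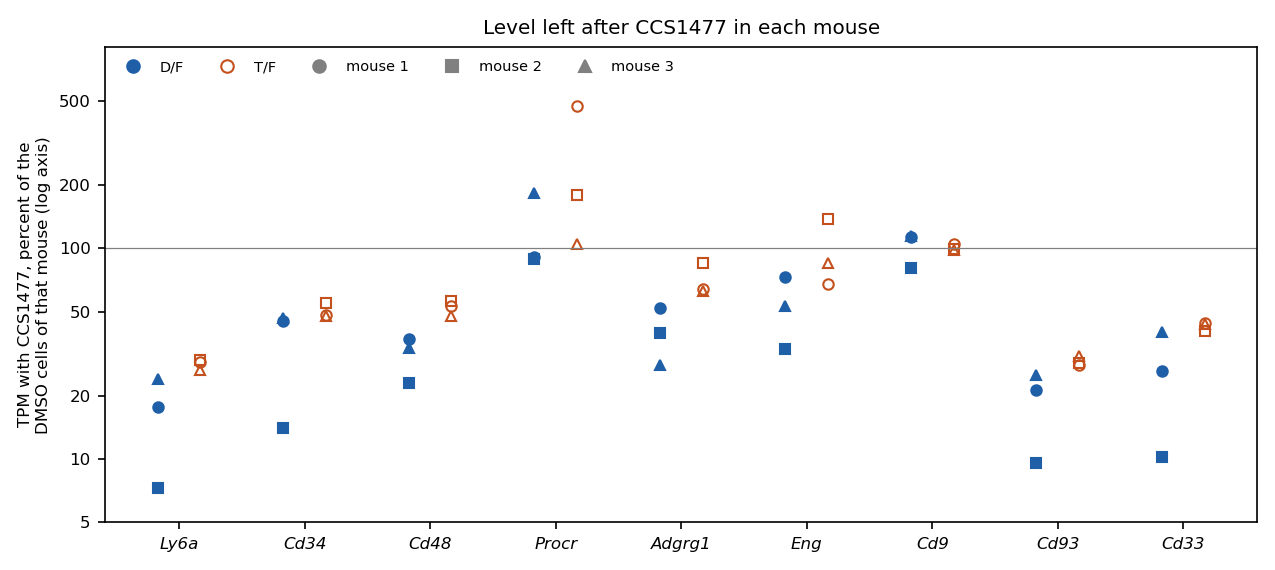
TPM with CCS1477 as a percent of the DMSO level of the same mouse (vertical axis, logarithmic) for 9 markers in 3 *D/F* mice (filled) and 3 *T/F* mice (open), with *Slamf1* left out because a library was listed at 0. *Ly6a*, *Cd93* and *Cd33* are tightly grouped in *T/F* and spread in *D/F*, where replicate 2 is lowest.

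Without drug the markers did not separate the genotypes. Under DMSO 0 of 10 passed in limma, against 0.0328% of all genes (5 of 15265), and no marker was under an unadjusted p of 0.05 while 939 genes were. The 95% intervals were wide for the markers that were high in *D/F* replicate 2, as for *Cd34*, with a *T/F* minus *D/F* log2 difference of -0.51 and an interval of -1.90 to 0.87. Under CCS1477 0 of 9 markers passed, *Slamf1* being too low to be tested, against 0.0329% of all genes (5 of 15199). Of 1643 genes under an unadjusted p of 0.05 in that limma fit, 1 was a marker. *Cd48* was at 39.1 ± 4.46 TPM (SD, n = 3) in treated *D/F* and 70.7 ± 4.42 TPM (SD, n = 3) in treated *T/F* cells, without overlap, a log2 difference of 0.84 ± 0.13 (SE, limma, adjusted p = 0.135).

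The spread between mice was larger than the spread of the response for most markers. The SD of the log2 response was below the SD of the log2 DMSO level for 9 of 10 markers in *T/F* and for 6 of 10 in *D/F*. The share of all genes with this pattern was not computed, so that these counts do not set the markers apart from other genes. For *Ly6a* in *T/F* the SD was 0.90 for the level and 0.14 for the response. The 4 markers that ran the other way in *D/F* were *Cd48*, *Cd93*, *Cd33* and *Slamf1*, for example *Cd93* with an SD of 0.32 for the level and 0.70 for the response. The DMSO level of *D/F* replicate 2 was 3.01 to 3.81 times the mean of the other 2 mice for *Ly6a*, *Cd34*, *Adgrg1* and *Eng*. With CCS1477 that ratio was 0.99 for *Ly6a* and 1.10 for *Cd34*, whereas it was 4.02 for *Adgrg1* and 2.08 for *Eng*.

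Genes of related families were examined from lists written by hand. For these genes, rose and fell refer to the limma test over both genotypes unless a genotype is named for the count, and the means beside them (± SD, n = 3) describe each genotype. Of 22 further stem and progenitor surface proteins tested over both genotypes, 12 fell and 2 rose in limma. In *D/F* 6 of 22 fell and none rose, and in *T/F* 10 of 20 fell and 2 rose. Of all genes, 6.51% fell and 5.14% rose in *D/F*, 17.6% fell and 25.8% rose in *T/F*, and 19.6% fell and 25.8% rose over both. With pairing 14 fell and 3 rose in each genotype, where 18% of all genes fell and 21.4% rose in *D/F*, and 22.9% fell and 31.2% rose in *T/F*. *Fcgr3*, an Fc receptor gene used to mark granulocyte and macrophage progenitors, fell from 118 ± 43.1 to 20.9 ± 13.03 TPM for *D/F* and 100 ± 24.0 to 32.3 ± 7.31 TPM for *T/F*. *Vcam1*, an adhesion molecule gene that also marks macrophages, went from 8.89 ± 3.30 to 0.174 ± 0.090 TPM in *D/F*. Both genes passed over both genotypes (limma, adjusted p = 0.000666 and 0.000269).

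Of 11 genes listed by hand as leukemia stem cell antigens, a status that these data do not test, 7 fell and 1 rose over both genotypes. In *D/F* 4 were lower and none higher, and in *T/F* 5 were lower and 1 higher. With pairing 7 were lower and none higher in *D/F*, 7 lower and 3 higher in *T/F*, and 8 lower and 2 higher over both. The shares of all genes in the paragraph above apply here too, with 25.9% lower and 34.5% higher over both with pairing. The 3 higher of 11 in *T/F* were near the 31.2% of all genes that rose in that paired fit. The 1 gene that rose without pairing was *Cd99l2*, by 0.34 on the log2 scale (limma over both genotypes, adjusted p = 0.00822). *Il3ra* was higher by 0.38 and passed only with pairing (limma over both genotypes, adjusted p = 0.189 unpaired and 0.0128 paired). *Clec12a*, which encodes a myeloid inhibitory lectin known as CLL-1, fell from 196 ± 87.6 to 21.7 ± 10.2 TPM for *D/F* and 167 ± 27.2 to 24.8 ± 5.64 TPM for *T/F* (limma over both genotypes, adjusted p = 1.62e-05). *Cd96* fell from 25.9 ± 22.9 to 2.72 ± 0.945 TPM for *D/F* and 16.8 ± 6.94 to 4.50 ± 1.86 TPM for *T/F*. *Havcr2*, which encodes TIM-3, fell from 8.04 ± 7.04 to 1.13 ± 0.672 TPM for *D/F* and 7.53 ± 4.01 to 1.35 ± 0.424 TPM for *T/F*. The call for both is that over both genotypes (limma, adjusted p = 0.00112 for *Cd96* and 0.00304 for *Havcr2*).

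The families of single markers differed in direction. Of 6 *Ly6* family genes tested, 4 fell over both genotypes and none rose, among them *Ly6e*, from 591 ± 117 to 298 ± 52.1 TPM for *D/F* and 396 ± 37.9 to 311 ± 30.6 TPM for *T/F* (limma over both genotypes, adjusted p = 0.00382). *Ly6c2*, a monocyte and granulocyte marker gene, fell by 0.97 on the log2 scale over both genotypes (limma, adjusted p = 0.0478), and *Ly6g*, a neutrophil marker gene, fell by 1.496 (limma, adjusted p = 0.0134). Of 6 SLAM family and adaptor genes 4 fell and none rose. *Cd244a*, the gene for the receptor of CD48, fell from 30.9 ± 24.1 to 1.34 ± 0.310 TPM for *D/F* and 18.6 ± 4.83 to 2.94 ± 1.67 TPM for *T/F* (limma over both genotypes, adjusted p = 7.09e-05). *Cd84* fell by 1.10 on the log2 scale over both genotypes (limma, adjusted p = 0.00168) and *Slamf7* by 1.49 (limma, adjusted p = 0.0375).

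Of 7 Siglec family and adaptor genes, relatives and partners of *Cd33*, 5 fell and none rose over both genotypes. *Siglece* fell from 14.0 ± 6.43 to 3.46 ± 0.460 TPM for *D/F* and 19.2 ± 0.948 to 4.35 ± 0.445 TPM for *T/F* (limma over both genotypes, adjusted p = 2.32e-05). *Siglecg* fell by 1.77 on the log2 scale over both genotypes (limma, adjusted p = 3.19e-05) and *Siglecf* by 1.56 (limma, adjusted p = 0.00862). Of 5 genes of the protein C system and group XIV lectins, which hold partners and relatives of *Procr* and *Cd93*, 3 fell and none rose. *Proc*, *Cd248* and *Clec14a* of that list were not among the genes analysed here. *F2r* did not pass, at a log2 difference of -0.17 (limma over both genotypes, adjusted p = 0.723). *F2rl3*, a thrombin receptor gene, fell from 10.8 ± 6.30 to 1.43 ± 0.463 TPM for *D/F* and 6.23 ± 1.27 to 1.64 ± 0.354 TPM for *T/F* (limma over both genotypes, adjusted p = 0.000141), and *F2rl2* fell by 0.77 on the log2 scale (limma, adjusted p = 0.00156).

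Other lists moved both ways. Of 15 tetraspanin genes besides *Cd9*, 6 rose and 5 fell over both genotypes. *Tspan4* fell from 78.5 ± 14.8 to 18.3 ± 3.16 TPM for *D/F* and 65.4 ± 9.78 to 20.0 ± 2.51 TPM for *T/F* (limma over both genotypes, adjusted p = 2.85e-06), and *Cd53* and *Cd63* fell by 0.97 and 0.93 on the log2 scale (limma, adjusted p = 0.00251 and 0.000624). Of 14 adhesion receptor and G protein genes related to *Adgrg1*, 3 rose and 4 fell, or 6 and 6 with pairing. *Adgrg3*, a close relative of *Adgrg1*, fell from 134 ± 41.1 to 29.2 ± 7.82 TPM for *D/F* and 89.9 ± 13.7 to 24.7 ± 2.72 TPM for *T/F* (limma over both genotypes, adjusted p = 7.97e-06). *Tgm2*, the gene for a transglutaminase that binds GPR56, fell by 1.80 on the log2 scale (limma, adjusted p = 0.0206), and *Adgrg5* by 1.78 (limma, adjusted p = 0.00141).

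Of 16 TGF-beta and BMP genes, the partners of *Eng*, 4 rose and 2 fell over both genotypes, or 9 and 2 with pairing. *Bmpr2*, a type II receptor gene, rose from 16.7 ± 4.84 to 34.4 ± 2.43 TPM for *D/F* and 16.3 ± 1.17 to 35.3 ± 0.903 TPM for *T/F* (limma over both genotypes, adjusted p = 2.59e-05). *Acvr1*, a type I receptor gene, rose by a log2 difference of 0.91 (limma, adjusted p = 0.000713). *Acvrl1*, the gene for the endothelial type I receptor ALK1, fell by 0.93 on the log2 scale (limma, adjusted p = 0.00187). Beside these counts, 25.8% of all genes tested rose and 19.6% fell over both genotypes, or 34.5% and 25.9% with pairing, so that the unpaired share of TGF-beta and BMP genes that rose was near that of all genes.

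**Figure D4:**
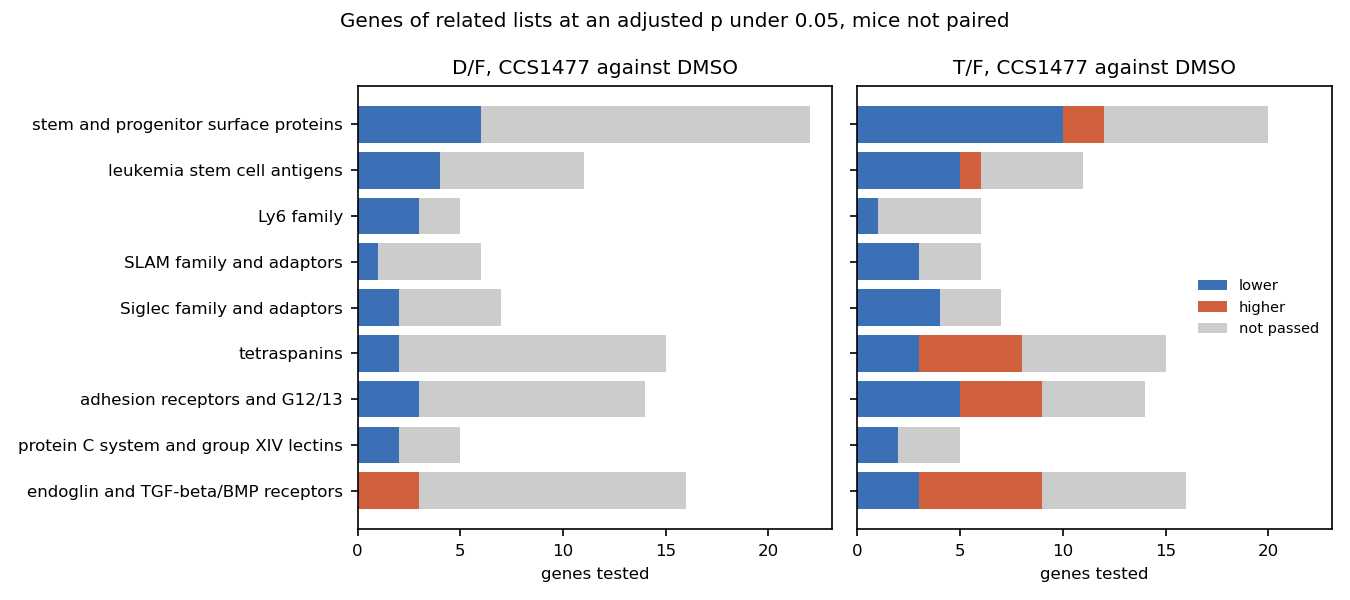
Number of tested genes in each related list (horizontal axis) that were lower (blue), higher (orange) or not past an adjusted p of 0.05 (gray) with CCS1477 in the unpaired fit, for *D/F* and *T/F*. Lists related to *Ly6a*, *Slamf1* and *Cd33* hold lower genes and no higher ones, and the tetraspanin, adhesion receptor and TGF-beta lists hold genes that moved each way in *T/F*.

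Several markers are also made by cells other than blasts, so that lists of such cells were summed. In bulk RNA, fewer cells of a type and less RNA per cell cannot be told apart. Of 7 endothelial genes, *Cdh5*, *Kdr*, *Tek* and *Cldn5* were not among the genes analysed here. For *D/F* the sum of the other 3 lay between 121.7 and 194.2 TPM with DMSO and between 53.5 and 59.3 TPM with CCS1477, and for *T/F* between 90.2 and 109.1 TPM and between 47.4 and 58.3 TPM. The difference lay in *Pecam1*, which myeloid cells also express, at 56.2 to 149 TPM with DMSO and 15.1 to 24.6 TPM with CCS1477, while *Egfl7* stayed between 27.6 and 42.6 TPM. The sum of 6 of 7 platelet lineage genes was 191.5 TPM in *D/F* replicate 2 with DMSO and at most 72.8 TPM in every other library. The sum of 8 of 10 monocyte and macrophage genes was between 87.4 and 110.2 TPM with DMSO and between 28.9 and 38.4 TPM with CCS1477 in *D/F*, and between 114.7 and 158.9 TPM and between 44.9 and 61.2 TPM in *T/F*. The sum of all 8 progenitor and granule genes was also lower, going from between 3721 and 10390 TPM to between 873 and 4350 TPM in *D/F* and from between 4313 and 6621 TPM to between 1710 and 3081 TPM in *T/F*, whereas that of 10 mature neutrophil genes overlapped, at 2382 to 9514 TPM with DMSO and 1672 to 9384 TPM with CCS1477. The sum of 4 of 7 B cell genes was between 23.4 and 56.3 TPM in *D/F* over both treatments, and in *T/F* between 52.0 and 61.0 TPM with DMSO and between 107.7 and 134.9 TPM with CCS1477. The sum of 3 of 7 mast cell and basophil genes was between 39.7 and 181.5 TPM with DMSO and between 17.8 and 40.3 TPM with CCS1477 over both genotypes. The sums of 3 of 7 T cell genes (13.8 to 25.7 TPM), 7 of 8 erythroid genes (10.9 to 32.1 TPM), 1 of 5 NK cell genes (at most 8.54 TPM) and 1 of 6 stromal genes (at most 11.6 TPM) were low. The part of these cells in the marker differences was not tested.

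The 2 genes whose log2 levels followed each marker most closely over the 12 libraries were taken among genes whose mean reached 5 TPM in a group. All libraries share the treatment contrast, so that these Pearson correlations describe these samples only. *Cd34* was followed by *Xntrpc* (r = 0.99) and *Endod1* (r = 0.984), *Cd48* by *Tbl1xr1* (r = 0.987) and *Rab7b* (r = 0.986), and *Adgrg1* by *Casp12* (r = 0.987) and *Gm16150* (r = 0.981). *Cd93* was followed by *Clec4b2* (r = 0.985) and *Elovl6* (r = 0.984), and *Cd33* by *Tm6sf1* (r = 0.972) and *Fcgr3* (r = 0.969). *Ly6a* was followed by *Dph6* (r = 0.967) and *Itgax* (r = 0.966), and *Slamf1* by *Ubtf* (r = 0.97) and *Wrb* (r = 0.965). *Cd9* was followed by *Myo9b* (r = 0.976) and *4933423P22Rik* (r = 0.961), *Eng* by *Pdgfrb* (r = 0.936) and *Rcbtb2* (r = 0.936), and *Procr* by *Stam* (r = 0.897) and *Mpzl3* (r = 0.895).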

How the data were processed

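RNA of 12 libraries was analysed as TPM per gene, which the authors deposited on a linear scale. The submitters' processing notes name kallisto and mm10, and the paper's methods name AltAnalyze. Labels name both ribosomal RNA depletion and a stranded mRNA kit. Genes under 2.00 TPM in every library had been removed, libraries summed to 914204 to 931697 TPM, and TPM keeps no depth. Here limma 3.58.1 in R 4.3.3 was run on log2(TPM + 1) for genes whose mean reached 1 TPM in a compared group, with eBayes without trend, two-sided p and Benjamini-Hochberg adjustment over all genes tested. A gene rose or fell at an adjusted p under 0.05 at any fold. The fit was tested on simulated data with independent libraries and changes set only in genes of higher level. Differences between mice and genes of low level were thus not covered. Within a genotype p-values rest on the libraries of 3 mice, and in the other comparisons on those of 3 mice of each genotype. The unpaired fit takes the DMSO and CCS1477 cells of a mouse as independent libraries. In eBayes the variance of each gene is also moderated by that of all genes. DMSO and CCS1477 cells that share a number are, per the labels, from 1 mouse, and their deviations from group means correlated at 0.337 to 0.65. Between mice the correlation was at most 0.13. Deviations from the mean of 3 libraries push those values down where same-mouse values are positive, so that the pairing rests on the labels. The 10 genes, the lists and the naming rule (all 10 markers, up to 3 passing genes of at least 5 TPM per list, the 2 most alike genes per marker, *Dnmt3a* and *Tet2*) were chosen with earlier results of these data known, and the motifs after the differences were known. A gene that the rule named is not reported here. Alternatives were another pseudocount or filter, rescaling, quantile normalization, a trend, pairing, a 2-fold limit and leaving out each mouse.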

Additional observations from a re-analysis of the deposited data

How the results depend on the processing

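Counts of markers past the threshold are given with their alternatives. In *D/F* it was 4 in the unpaired fit, 7 with the replicate block, and 0 to 5 when 1 mouse was left out (0 without replicate 1 or replicate 3, and 5 without replicate 2). In *T/F* it was 4 in the unpaired fit, 7 with the replicate block and 2 when a fold above 2 was also asked, and 3 to 5 when 1 mouse was left out. Over both genotypes it was 6 in the unpaired fit, 5 to 7 under the alternatives, and 6 or 7 when 1 mouse was left out, and for the difference of response and the genotype comparisons it was 0 under every alternative run. The replicate block changed no call but those given beside each marker. The block with a 2-fold limit (6 in *D/F*, 3 in *T/F* and 5 over both) and the block without *D/F* replicate 2 (6 in *D/F* and 7 over both) were chosen after seeing the data. For the genotype comparisons no paired analysis was possible because the mice differ. Genes of the whole table past the threshold numbered 1805 in *D/F*, 6098 with the block, 2846 with quantile normalization, 1128 above 2-fold and 0 to 3739 with 1 mouse left out. In *T/F* they numbered 6620, 1118 above 2-fold and 3192 to 5122 with 1 mouse left out, and over both genotypes 7061, or 1371 above 2-fold. Between genotypes they numbered 5 under DMSO (4 to 9 over the alternatives) and 5 under CCS1477 (2 to 27, the highest without *D/F* replicate 2). *Ly6a* in *D/F* missed the threshold with a pseudocount of 0.1 (limma, adjusted p = 0.0546). In *T/F* it passed at a filter of 5 TPM, after rescaling, with quantile normalization and with a trend (limma, adjusted p between 0.0386 and 0.0463), and *Cd34* passed after rescaling in both genotypes (limma, adjusted p = 0.0446 for *D/F* mice and 0.035 for *T/F* mice) and with a trend in *T/F* (limma, adjusted p = 0.0451).

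Signs turned for differences not called in the unpaired fit. For *Cd9* the log2 difference became -0.0321 in *D/F*, -0.0722 in *T/F* and -0.0524 over both after rescaling to the median gene, and leaving out 1 mouse gave -0.0683 to 0.18 with CCS1477 in *D/F*, -0.0239 to 0.0234 with CCS1477 in *T/F*, -0.0241 to 0.0753 with CCS1477 over both genotypes, -0.17 to 0.0737 in the difference of response, -0.0410 to 0.47 between genotypes under DMSO. For *Slamf1* the difference of response became 0.15 with a pseudocount of 0.1, and for *Adgrg1* the genotype difference under CCS1477 became 0.0017 with that pseudocount and 0.0083 after rescaling. Leaving out 1 mouse also turned the sign with CCS1477 in *D/F* for *Procr* (-0.10 to 0.24). It turned the sign with CCS1477 in *T/F* for *Eng* (-0.37 to 0.11). It turned the sign in the difference of response for *Slamf1* (-0.46 to 0.16). It turned the sign between genotypes under DMSO for *Ly6a* (-0.68 to 0.42), *Cd34* (-0.90 to 0.10), *Cd48* (-0.0307 to 0.19), *Procr* (-0.39 to 0.29), *Eng* (-0.91 to 0.16), *Slamf1* (-0.0754 to 0.48). It turned the sign between genotypes under CCS1477 for *Cd34* (-0.0811 to 0.35), *Cd93* (-0.0388 to 0.38), *Adgrg1* (-0.37 to 0.62). The causes were not tested. TPM keeps no read numbers, so that what depth limits is unknown, and *Slamf1* and *Procr*, at a few TPM or less, are the least certain values.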
